A study of Coccomyxa subellipsoidea C-169 with 6 samples.

Results

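COCSUDRAFT_67338 is a gene of the Antarctic green microalga Coccomyxa subellipsoidea C-169 and carries the protein name Metallo-hydrolase/oxidoreductase in the deposited files. It is 1 of 9490 listed genes and was chosen by its locus tag, with its high level and its change between groups already known, so its own values are a description and no test of them is given. Messenger RNA was profiled in 6 cultures, 3 of the genotype labelled as an overexpressor of CsubMADS1, a MADS-box transcription factor (here OX-labelled), and 3 of wild type (WT). Every culture had reached stationary phase at harvest, which took place 3 hours ahead of the dark period. The labels give biological replicates but do not say how many transformed lines the OX-labelled cultures came from, so a trait of 1 line and an effect of the labelled gene cannot be told apart.

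Proteins with this name share the metallo-beta-lactamase fold, in which histidine and aspartate side chains hold metal ions, often zinc and in some families iron, at the active site. The fold is shared by enzymes with different reactions, among them bacterial beta-lactamases, glyoxalase II, sulfur dioxygenases, flavodiiron proteins that reduce oxygen in photosynthetic cells, and nucleases of transfer RNA and messenger RNA ends. The name therefore gives the fold and not the substrate, and the reaction of COCSUDRAFT_67338 is not given by the files.

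The files hold raw counts, with library totals from 3771499 to 5336375. The 1 gene with a MADS-box protein name, COCSUDRAFT_67545, averaged 60.7 ± 6.99 CPM (counts per 1000000, with library sizes scaled by edgeR's TMM factors) in OX-labelled libraries and 86.8 ± 7.72 CPM in WT libraries (SD, n = 3 each). Its direction goes against the label and it missed the threshold (log2 fold change -0.51, SE 0.18, edgeR quasi-likelihood test with Benjamini-Hochberg adjusted p = 0.0535). Its identity with CsubMADS1 rests on the name alone, so every direction below is that of the labels. On the second principal component (19.6% of variance), OX-labelled replicate 3 lay away from replicates 1 and 2 of its group, and values without it are given where it matters.

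COCSUDRAFT_67338 was among the most abundant transcripts of WT cells and lower in every OX-labelled library, with a difference in means of -3916 CPM. Its level was 2432, 2272 and 1680.3 CPM in OX-labelled replicates 1 to 3, against 6275, 5877 and 5978 CPM in WT replicates 1 to 3. The groups did not overlap, and the highest OX-labelled library held 41.4% of the level of the lowest WT library. The mean was 2128 ± 396 CPM in OX-labelled libraries and 6043 ± 207 CPM in WT libraries (SD, n = 3 each), so that the OX-labelled mean was 35.2% of the WT mean. The fitted log2 fold change was -1.51 (SE 0.19), or -1.36 (SE 0.16) without OX-labelled replicate 3. In RNA from whole cultures, fewer cells with the transcript and less transcript per cell cannot be told apart.

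The share of all counted reads shows how large this transcript was. It took 0.232%, 0.215% and 0.173% of the counts of OX-labelled replicates 1 to 3, with 95% exact (Clopper-Pearson) intervals of 0.228 to 0.237%, 0.211 to 0.219% and 0.169 to 0.177%. In WT replicates 1 to 3 it took 0.63%, 0.599% and 0.627%, with intervals of 0.623 to 0.637%, 0.592 to 0.606% and 0.619 to 0.635%. About 1 counted read in 430 to 578 thus came from this gene in OX-labelled libraries, and 1 in 159 to 167 in WT libraries. The intervals cover counting error only, and libraries of 1 group differed by more than these intervals: the 3 OX-labelled intervals do not overlap each other, and that of WT replicate 2 overlaps neither of the other WT intervals.

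The WT libraries were close to each other and the OX-labelled libraries were not. The coefficient of variation was 18.6% over the OX-labelled libraries and 3.42% over the WT libraries. On the log2 scale the SD of the gene was 0.28 in OX-labelled libraries, against a median of 0.25 for the 200 genes with the highest WT level. In WT libraries its SD was 0.05, against a median of 0.13 for the same 200 genes, of which 177 had a larger WT SD. OX-labelled replicate 3 held the lowest level. Relative to the WT mean, the log2 difference was -1.31, -1.41 and -1.85 in OX-labelled replicates 1 to 3, while the median over all tested genes lay between -0.01 and 0.02 in the same libraries.

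**Figure D1:**
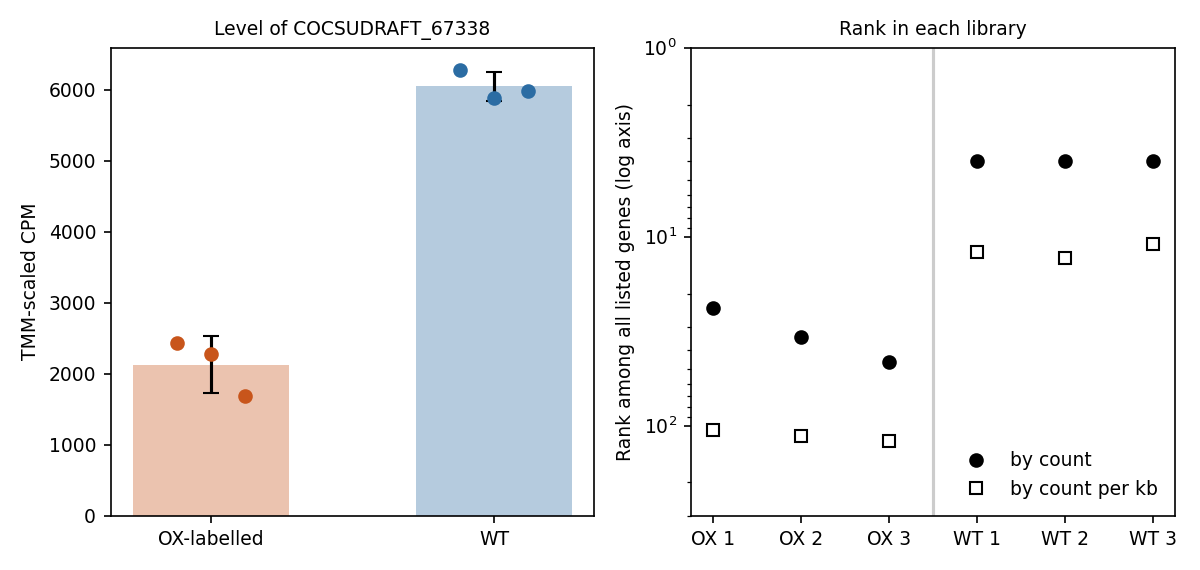
Left, level of COCSUDRAFT_67338 in TMM-scaled CPM, with points for the 3 libraries of each group, bars for the mean and error bars for the SD; the OX-labelled libraries lie between 1680.3 and 2432 CPM and the WT libraries between 5877 and 6275 CPM. Right, its rank among 9490 listed genes in each library on a log axis, by count (filled circles) and by count per kilobase of annotated gene span (open squares); every OX-labelled library gives it a lower place than every WT library.

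By count, the gene stood at rank 24, 34 and 46 in OX-labelled replicates 1 to 3 and at rank 4 in each of the 3 WT libraries. Long genes collect more reads, so levels between genes were also compared per kilobase of annotated span, which is 4.342 kb here and includes introns. Per kilobase its rank was 106, 113 and 121 in OX-labelled replicates 1 to 3 and 12, 13 and 11 in WT replicates 1 to 3. The gene stood lower in every OX-labelled library by either measure, but it stayed above 98.7% of the listed genes per kilobase in each.

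Per kilobase, 9 genes were above COCSUDRAFT_67338 in all 6 libraries, and 69 genes were above it in every OX-labelled library and in no WT library. Of these 69, 31 were called higher, 4 were called lower and 34 did not pass at an adjusted p under 0.05 in edgeR, where 15.6% of all tested genes were higher and 8.98% lower. The 69 were picked for standing high in OX-labelled libraries, which favours higher calls, so nothing is read from these counts. By name, 8 of the 69 were ribosomal proteins, of which 0 were higher, 2 lower and 6 did not pass. Another 3 were chlorophyll a-b binding proteins of the light-harvesting antenna, all called higher, and 35 had no informative name. A further 4 had photosystem or ferredoxin spelled out in the name, of which 3 were higher. That count leaves out the photosystem subunits named PSI-D1 and PSII 6.1 kDa protein, which were called higher. Over all 6 libraries its mean of 941 CPM per kilobase gave it rank 28. The 3 genes just above it were elongation factor 1-alpha COCSUDRAFT_27513, which brings aminoacyl-tRNA to the ribosome (980.4), the iron store ferritin COCSUDRAFT_67369 (961) and the photosystem I subunit PsaE COCSUDRAFT_18458 (946 CPM per kilobase). Just below it were the ribosomal proteins L7, COCSUDRAFT_20022 (935), and L29, COCSUDRAFT_52899 (933), and the iron permease FTR1, COCSUDRAFT_52684 (910.2 CPM per kilobase). Of these neighbours in mean level, ferritin had a log2 fold change of -0.33 (SE 0.19) that did not pass (adjusted p in edgeR = 0.222). Iron permease FTR1, which takes up iron at the cell surface in yeast, rose in OX-labelled libraries (log2 fold change 1.14, SE 0.18, edgeR adjusted p = 0.00121). PsaE rose too (log2 fold change 0.69, SE 0.18, edgeR adjusted p = 0.0174). Elongation factor 1-alpha (-0.43, edgeR adjusted p = 0.134), L7 (-0.46, edgeR adjusted p = 0.0756) and L29 (-0.60, edgeR adjusted p = 0.065) did not pass.

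The difference in mean CPM was the largest negative one of any listed gene. Next came the plastid acyl-ACP desaturase COCSUDRAFT_53735, an enzyme that puts double bonds into fatty acids, with 3600.3 CPM in OX-labelled and 6533 CPM in WT libraries, and the cold-shock domain gene COCSUDRAFT_45992, with 8116 CPM in OX-labelled and 10877 CPM in WT libraries. Summed over the 4668 genes with a lower mean in OX-labelled libraries, COCSUDRAFT_67338 made up 2.45% of the summed difference. On the fold scale, 24 of 8575 tested genes (0.28%) had a lower log2 fold change. None of these 24 was among the 104 tested genes with a WT mean of at least 1000 CPM. Among the 100 genes with the highest WT level, the next lowest log2 fold change was that of an uncharacterized gene, COCSUDRAFT_64411, at -1.32, and the median was -0.33. The HSP20-like chaperone COCSUDRAFT_31935 followed at -1.20, with 759.8, 2033 and 516 CPM in OX-labelled replicates 1 to 3. That chaperone varied widely between OX-labelled libraries, whereas COCSUDRAFT_67338 was low in all 3.

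**Figure D2:**
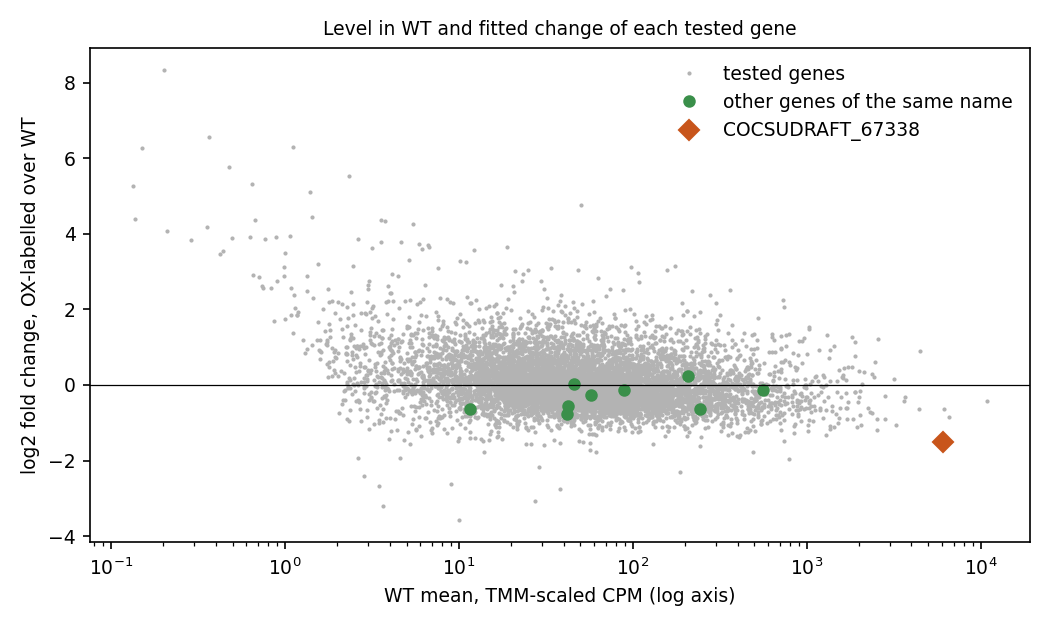
Each grey point is a tested gene with a WT mean above 0 (1 tested gene had no WT count), with its WT mean in TMM-scaled CPM on a log axis and its log2 fold change of OX-labelled over WT on the other axis. COCSUDRAFT_67338 (diamond) lies at 6043 CPM and -1.51, below the other genes of high WT level, and the 9 other genes of its name (green) lie between -0.77 and 0.22.

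The files list 9 further genes named Metallo-hydrolase/oxidoreductase, 1 of them marked as a fragment, and all 9 passed the filter on low counts. Of these, 1 was lower, 0 were higher and 8 did not pass, at an adjusted p under 0.05 in edgeR's quasi-likelihood test, where 8.98% of all tested genes were lower and 15.6% were higher (24.6% in either direction). At an unadjusted p under 0.05 in edgeR, 3 of the 9 were lower and 0 higher. Of all 8575 tested genes, 1398 were lower and 1852 higher by that measure. DESeq2's Wald test and limma-voom each called 2 of the 9 lower and 0 higher. Over all tested genes DESeq2 called 903 lower and 1387 higher, and limma-voom 804 lower and 1275 higher. Their median log2 fold change was -0.28, against -0.0028 over all tested genes. In 4 of the 9 every OX-labelled library was below every WT library, and in 0 every OX-labelled library was above, where 19.8% and 23.1% of tested genes did so. With 9 genes, 1 lower call is close to the background share in edgeR. None of the 9 lies on its scaffold.

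**Figure D3:**
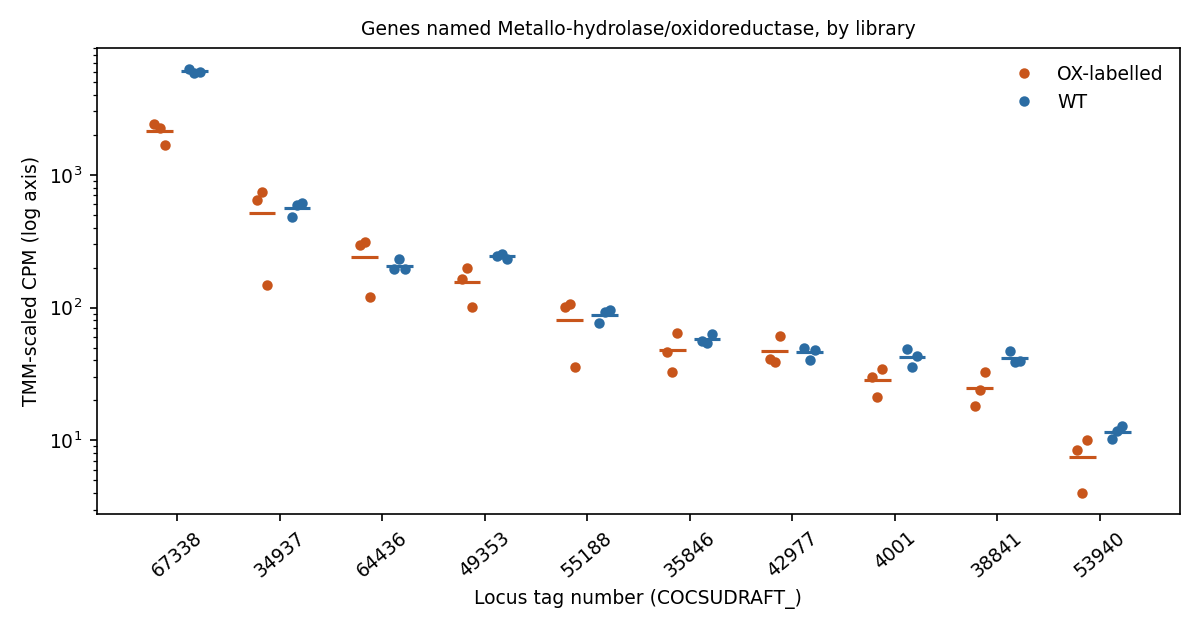
Levels of the 10 genes named Metallo-hydrolase/oxidoreductase in TMM-scaled CPM on a log axis, OX-labelled libraries (left of each pair) and WT libraries (right), with a line at each mean. COCSUDRAFT_67338 is the highest in all 6 libraries, and in COCSUDRAFT_34937, COCSUDRAFT_64436 and COCSUDRAFT_55188 1 OX-labelled library, replicate 3, lies far below the other libraries.

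Of the 9 other genes of this name, COCSUDRAFT_38841 was the 1 called lower in edgeR with all libraries. It held 18.2, 23.7 and 32.4 CPM in OX-labelled replicates 1 to 3, against 47.4, 39.2 and 39.4 CPM in WT replicates 1 to 3. Its log2 fold change was -0.77 (SE 0.23, edgeR adjusted p = 0.0332), and the groups did not overlap. The call was lost without OX-labelled replicate 1 (adjusted p = 0.118), without OX-labelled replicate 2 (0.0652) and without WT replicates 1, 2 and 3 (0.12, 0.0696 and 0.0671), all in edgeR. Lower calls over all tested genes went from 770 to 414, 825, 313, 414 and 385 in these fits, in that order. COCSUDRAFT_49353 held 165, 199 and 102 CPM in OX-labelled replicates 1 to 3, against 244, 252 and 232 CPM in WT replicates 1 to 3. Its log2 fold change of -0.64 (SE 0.23) missed the threshold (edgeR adjusted p = 0.0587), and it passed under 7 of 14 other settings. COCSUDRAFT_4001, the fragment, had a log2 fold change of -0.56 (SE 0.23, adjusted p in edgeR = 0.0909) and COCSUDRAFT_53940, the least abundant of the name at 7.50 CPM in OX-labelled and 11.6 CPM in WT libraries, one of -0.63 (SE 0.33, edgeR adjusted p = 0.182).

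COCSUDRAFT_34937, the second most abundant gene of the name, held 651, 747 and 148 CPM in OX-labelled replicates 1 to 3, against 478, 593 and 615 CPM in WT replicates 1 to 3. The groups overlapped, with OX-labelled replicates 1 and 2 above all WT libraries and replicate 3 far below them. Its log2 fold change of -0.12 (SE 0.46, adjusted p in edgeR = 0.874) became 0.32 without OX-labelled replicate 3 (adjusted p = 0.149). COCSUDRAFT_64436 had 294, 309 and 121 CPM in OX-labelled replicates 1 to 3 and 194, 231 and 196 CPM in WT replicates 1 to 3. Without OX-labelled replicate 3 it was called higher in edgeR (log2 fold change 0.54, adjusted p = 0.0141), which it was not with all libraries (0.22, SE 0.29, adjusted p = 0.607). COCSUDRAFT_55188 showed the same layout at a lower level, with 100.4, 107 and 35.9 CPM in OX-labelled replicates 1 to 3, against 77.0, 93.3 and 95.3 CPM in WT replicates 1 to 3.

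Within the OX-labelled group replicate 3 was the lowest or the highest library for each of the 9. In 4 of the 9, replicate 3 held the lowest OX-labelled level, as in COCSUDRAFT_67338, and in the other 5 it held the highest. Over all 8575 tested genes replicate 3 was the lowest OX-labelled library in 3519 and the highest in 3176, so nothing particular to the name is read from these counts. The 5 were COCSUDRAFT_35846, COCSUDRAFT_42977, COCSUDRAFT_4001, COCSUDRAFT_38841 and COCSUDRAFT_53940, with no library above 63.8 CPM, and the 4 with the lowest level in replicate 3 were the most abundant of the 9. Without OX-labelled replicate 3, 3 of the 9 were lower (COCSUDRAFT_38841, COCSUDRAFT_4001 and COCSUDRAFT_35846) and 1 was higher (COCSUDRAFT_64436), where 14.3% and 18.9% of tested genes were. In that fit COCSUDRAFT_67338 kept a log2 fold change of -1.36, beyond the -1.01 of COCSUDRAFT_38841, the lowest of the 9.

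COCSUDRAFT_67338 carried most of the transcript of its name in WT cells. Per kilobase of span, it held 53.4%, 49.4% and 66.2% of the summed level of the 10 genes in OX-labelled replicates 1 to 3, and 77.8%, 74.2% and 74.4% in WT replicates 1 to 3. OX-labelled replicate 3 gave the highest share of its group, and the sum of the other genes was lowest there. The 9 other genes summed to 488, 535 and 198 CPM per kilobase in OX-labelled replicates 1 to 3, against 414, 471 and 473 CPM per kilobase in WT replicates 1 to 3. These sums overlapped between the groups. The level of COCSUDRAFT_67338 per kilobase was 2.09, 1.70 and 6.35 times that of COCSUDRAFT_34937, the next gene of the name, in OX-labelled replicates 1 to 3, and 7.34, 5.54 and 5.43 times in WT replicates 1 to 3.

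Genes with other names linked to the fold or to the glyoxalase pathway were listed by name patterns. The 19 listed genes gave 18 tested genes, of which 5 were higher, 0 lower and 13 did not pass in edgeR, with a median log2 fold change of 0.47. In the same fit 15.6% of all tested genes were higher and 8.98% lower, so that 0 lower of 18 is close to the background share. At an unadjusted p under 0.05 in edgeR 7 of them were higher and 0 lower, where 1852 and 1398 of 8575 tested genes were. DESeq2 and limma-voom also called 0 lower, where 903 and 804 of all tested genes were. They called 6 and 5 higher, where 1387 and 1275 of all tested genes were. Without OX-labelled replicate 3, 7 were higher and 0 lower, where 18.9% and 14.3% of tested genes were. Without WT replicate 1, 2 or 3 the list had 3 higher. In those fits 737 of 8630, 875 of 8644 and 865 of 8639 tested genes were higher. Names of flavodiiron proteins, persulfide or sulfur dioxygenases, alkylsulfatases and DNA cross-link repair nucleases matched 0 genes.

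Among genes that carry the fold, the 3 Lactamase_B domain genes did not pass. The most abundant, COCSUDRAFT_59422, had 33.5, 35.8 and 64.6 CPM in OX-labelled replicates 1 to 3 and 55.1, 45.3 and 45.2 CPM in WT replicates 1 to 3 (log2 fold change -0.13, SE 0.25, edgeR adjusted p = 0.755). COCSUDRAFT_19473 had a log2 fold change of 0.78 (edgeR adjusted p = 0.0679) and COCSUDRAFT_58792 one of 0.40 (edgeR adjusted p = 0.414). Hydroxyacylglutathione hydrolase is glyoxalase II, which completes the removal of methylglyoxal. Its genes COCSUDRAFT_54042 and COCSUDRAFT_35199 had log2 fold changes of -0.35 (SE 0.23, edgeR adjusted p = 0.283) and -0.14 (SE 0.28, edgeR adjusted p = 0.751).

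Both genes named cleavage and polyadenylation specificity factor subunit 2, a protein of messenger RNA 3' end formation, rose. COCSUDRAFT_53032 averaged 293 ± 33.4 CPM in OX-labelled and 181 ± 9.97 CPM in WT libraries (SD, n = 3 each, log2 fold change 0.70, edgeR adjusted p = 0.0117), and COCSUDRAFT_83661 had a log2 fold change of 0.89 (edgeR adjusted p = 0.00548). The call of COCSUDRAFT_53032 was lost without WT replicate 1, 2 or 3 (edgeR adjusted p = 0.0538, 0.0677 and 0.0665). Higher calls over all tested genes went from 1337 to 737, 875 and 865 in these fits. COCSUDRAFT_53032 and COCSUDRAFT_83661 are annotated next to each other, so the 20 tested genes around each are largely the same. Of these, 15 around each were also called higher, where 15.6% of all tested genes were.

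The remaining risers do not belong to the fold. Glyoxalase I starts methylglyoxal removal and has another fold. Other glyoxalase names matched 9 genes, most of them named Glyoxalase/Bleomycin resistance protein/Dihydroxybiphenyl dioxygenase and not glyoxalase I. Of these 9 genes 2 were higher, 0 lower and 7 did not pass. This is close to the shares of 15.6% higher and 8.98% lower over all tested genes. COCSUDRAFT_28303 carries that longer name. It held 197, 157 and 138 CPM in OX-labelled replicates 1 to 3, against 42.6, 44.8 and 42.7 CPM in WT replicates 1 to 3 (log2 fold change 1.92, SE 0.19, edgeR adjusted p = 7.71e-05). The groups lay far apart, and 17 of the 20 tested genes around it were called higher too. COCSUDRAFT_23589, named glyoxalase I, rose, with a log2 fold change of 0.65 (SE 0.18; adjusted p in edgeR = 0.0204). Its call was lost without OX-labelled replicate 1 (edgeR adjusted p = 0.0721) and without WT replicates 1, 2 and 3 (edgeR adjusted p = 0.102, 0.0885 and 0.083). Higher calls over all tested genes went from 1337 to 997, 737, 875 and 865 in these fits. The other gene named glyoxalase I, COCSUDRAFT_35198, did not pass (log2 fold change 0.03, SE 0.28, edgeR adjusted p = 0.948), and its groups overlapped. Of the longer name, COCSUDRAFT_65018 (0.64, edgeR adjusted p = 0.0575) and COCSUDRAFT_56231 (0.55, edgeR adjusted p = 0.141) did not pass in edgeR with all libraries. DESeq2's Wald test called COCSUDRAFT_65018 higher (0.63, adjusted p = 0.0365). Without OX-labelled replicate 3 edgeR called COCSUDRAFT_65018 (0.82, adjusted p = 0.00214) and COCSUDRAFT_56231 (0.79, adjusted p = 0.00754) higher, as it did 18.9% of tested genes. Over 14 other settings they passed under 2 and 1. The pattern on lactamase names also let in serine-type beta-lactamase/transpeptidase-like genes, of which COCSUDRAFT_46827 rose with 111, 147 and 224 CPM in OX-labelled replicates 1 to 3, against 37.0, 37.1 and 37.4 CPM in WT replicates 1 to 3 (log2 fold change 2.11, edgeR adjusted p = 0.000209). Of the 20 tested genes around it 13 were called higher and 1 lower. A second gene of that name, COCSUDRAFT_45789, had a log2 fold change of 0.20 (edgeR adjusted p = 0.517), and the third had too few counts to be tested.

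Other genes of the scaffold of COCSUDRAFT_67338 were called lower too. Its scaffold holds 274 annotated genes, of which 236 were tested, and 73 of these (30.9%) were called lower and 23 higher, where 8.98% and 15.6% of all tested genes were (edgeR, adjusted p under 0.05). The 73 include COCSUDRAFT_67338. Without it the median log2 fold change of the scaffold was -0.35, and with it -0.36 was the lowest median among the 27 scaffolds with at least 50 tested genes, the next being -0.10. Over the 20 nearest tested genes, 10 on each side, the median was -0.53, with 7 called lower and 0 higher. The scaffold shift was alike in each library, with medians of -0.32, -0.33 and -0.34 relative to the WT mean in OX-labelled replicates 1 to 3, whereas COCSUDRAFT_67338 itself was lower in replicate 3 than in the others. Only 2 of the tested genes on the scaffold had a lower log2 fold change than COCSUDRAFT_67338. The part of the scaffold shift in the change of the gene was not tested.

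**Figure D4:**
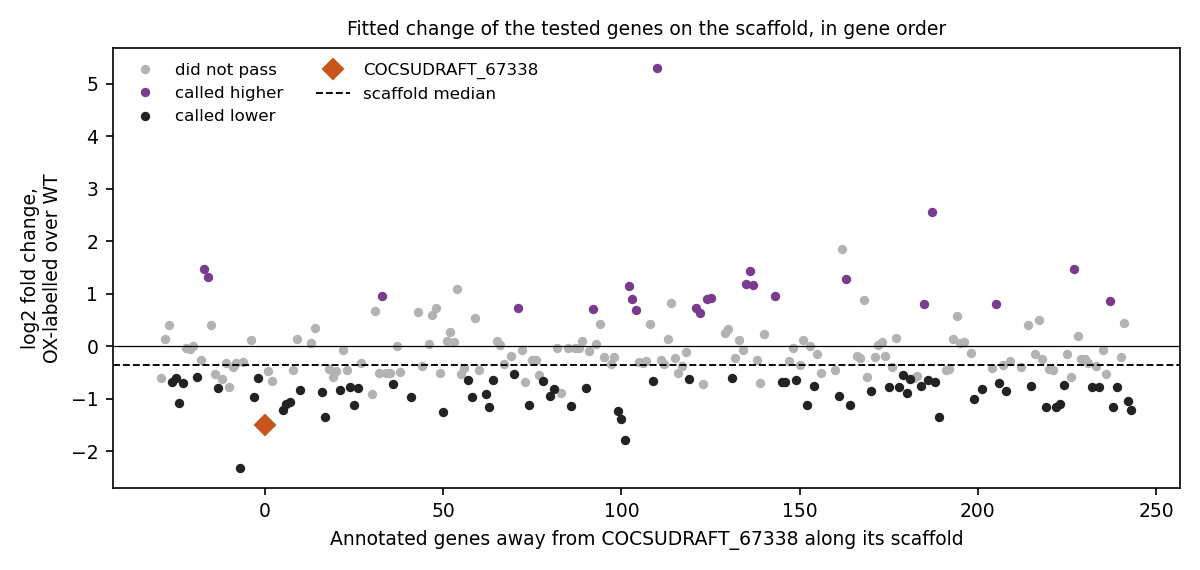
Log2 fold change of OX-labelled over WT for the 236 tested genes on the scaffold of COCSUDRAFT_67338, in annotated gene order counted from it, with calls at an adjusted p under 0.05 in edgeR. The dashed line is the scaffold median of -0.36, and COCSUDRAFT_67338 (diamond) lies at -1.51, with 2 tested genes below it.

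Of its 3 annotated neighbours on each side, 5 had values here, and the annotated span of COCSUDRAFT_67338 overlaps none of the annotated genes. The closest measured gene on one side was the cytosolic ribosomal protein L9, COCSUDRAFT_30590, with 1115 ± 95 CPM in OX-labelled and 1687 ± 144 CPM in WT libraries (SD, n = 3 each, log2 fold change -0.60, edgeR adjusted p = 0.0256). Lower calls over all tested genes went from 770 to 414 without WT replicate 2 and to 385 without WT replicate 3. In these 2 fits the call of COCSUDRAFT_30590 was lost (edgeR adjusted p = 0.105 and 0.0683, in that order). Beyond it, the metallo-dependent phosphatase COCSUDRAFT_43840, of a different fold despite its name, fell with 61.6, 65.0 and 74.4 CPM in OX-labelled replicates 1 to 3, against 144, 123 and 127 CPM in WT replicates 1 to 3 (log2 fold change -0.97, edgeR adjusted p = 0.00228). On the other side, the gene COCSUDRAFT_30594, named for the domain of amino acid transporters, had a log2 fold change of -0.47 (SE 0.24, adjusted p in edgeR = 0.162). The uncharacterized COCSUDRAFT_57535 had one of -0.65 (SE 0.24, edgeR adjusted p = 0.0631), or -0.92 with a call without OX-labelled replicate 3 (edgeR adjusted p = 0.00295). With all libraries DESeq2's Wald test also called it lower (-0.66, adjusted p = 0.0435). COCSUDRAFT_57536 had 20 counts over the OX-labelled libraries and 7 over the WT libraries and was not tested.

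The genes whose pattern over the 6 libraries was most like that of COCSUDRAFT_67338 were sought among 2350 other genes with a mean of at least 100 CPM. Likeness was the root-mean-square difference of log2 CPM after each gene was centred on its own mean. The 6 libraries fall into 2 groups, so a small difference mainly means a similar drop between the groups. The closest was an asparagine-tRNA ligase, COCSUDRAFT_15475, which loads asparagine onto its tRNA, at a difference of 0.16. It held 169.6, 170.3 and 152 CPM in OX-labelled replicates 1 to 3, against 392, 411 and 437 CPM in WT replicates 1 to 3. Next came an ATP-binding cassette transporter, COCSUDRAFT_52664 (0.18), with 90.4, 69.9 and 76.9 CPM in OX-labelled replicates 1 to 3, against 255, 251 and 224 CPM in WT replicates 1 to 3. These were followed by the uncharacterized genes COCSUDRAFT_67133 (0.18) and COCSUDRAFT_46165 (0.19) and a PLP-dependent transferase, COCSUDRAFT_64789 (0.21), a type of enzyme that uses vitamin B6. Their fitted log2 fold changes ran from -1.62 for COCSUDRAFT_52664 to -1.21 for COCSUDRAFT_46165. The median difference over all 2350 genes was 0.77, and 10 of them had a difference under 0.25. The 9 genes of the same name ranged from 0.45 for COCSUDRAFT_49353 to 0.87 for COCSUDRAFT_64436. Those with a mean under 100 CPM were not among the 2350. The 5 genes were picked for the smallest differences, so nothing about the name is read from their being closer. With a minimum of 50 CPM in place of 100 CPM, 4 of the 5 genes stayed among the closest 5.

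**Figure D5:**
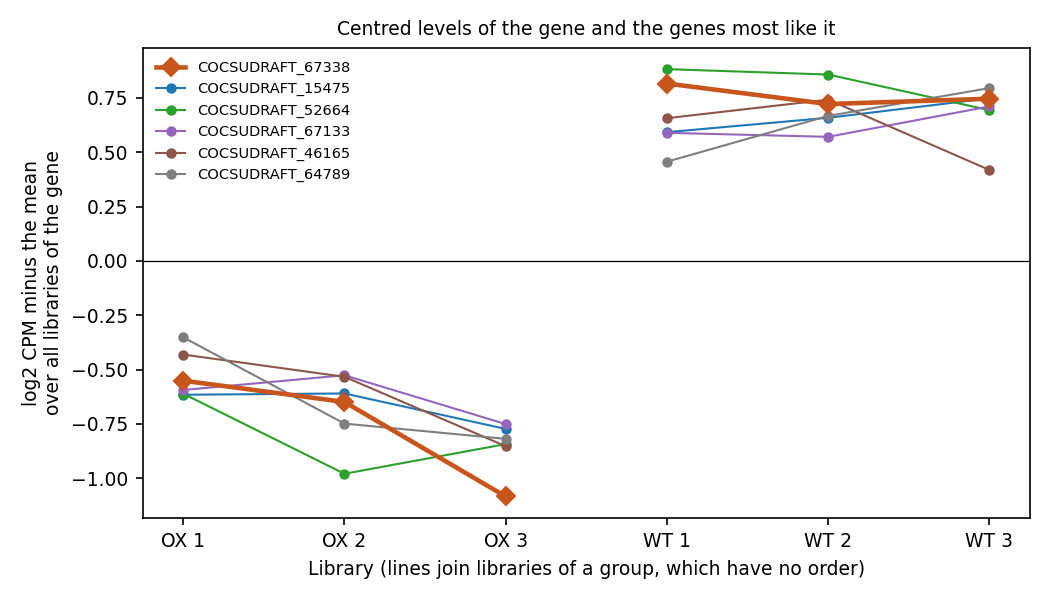
Log2 CPM of COCSUDRAFT_67338 (diamonds) and of the 5 genes most like it in each library, each gene centred on its mean over the 6 libraries; lines join libraries of 1 group only for tracing a gene. All 6 genes lie below 0 in the 3 OX-labelled libraries and above 0 in the 3 WT libraries, and COCSUDRAFT_67338 is the lowest of them in OX-labelled replicate 3.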

How the data were processed

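Libraries were made from total RNA with a directional kit, per the labels' protocols, and HISAT, HTSeq, Trim Galore and FastQC appear, with no versions, in the submitters' processing notes. The authors deposited raw counts per gene for 9490 genes. Not given in the sources used here: the genome build, the strand setting and the treatment of reads that match several genes. Similar genes of 1 name, and overlapping or antisense genes, may therefore share reads. All 9490 locus tags matched assembly GCF_000258705.1 of RefSeq, which was used for gene span, scaffold and gene order only.

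Counts were fitted in edgeR 4.0.16 (R 4.3.3) over all genes: filterByExpr (8575 genes kept), TMM scaling, two-sided quasi-likelihood F test (robust) of group, Benjamini-Hochberg adjustment over all tested genes, threshold 0.05. SE was taken as the size of the log2 fold change divided by the root of F. CPM uses the TMM factors. Log2 CPM had a prior count of 2. An exact permutation test of 3 against 3 cannot go below 0.1 and was not used.

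The gene, the lists and the tests were chosen with earlier results of these data known. Named genes were the gene itself, the MADS-box gene, all genes of the same protein name, up to 4 genes of each other name pattern by lowest p, 3 neighbours on each side on the scaffold and in level, and the 5 most alike. COCSUDRAFT_53735, COCSUDRAFT_45992, COCSUDRAFT_64411, COCSUDRAFT_31935 and COCSUDRAFT_35198 were named after their values were seen. No 2 libraries agreed within sampling noise (lowest chi-square per degree of freedom 6.97). Alternatives were other scalings, filters, DESeq2 1.42.0, limma-voom (limma 3.58.1), the replicate number as a block, and each library left out. On simulated counts for this comparison (8549 genes tested), edgeR recovered 65 of the 100 genes with a 2-fold change, 100 of the 100 with a 4-fold change, and 5.17% of calls were false. The simulation gave all genes in both groups the same dispersion. In the data, the 200 genes with the highest WT level had a median log2 SD of 0.25 in OX-labelled and 0.13 in WT libraries. These simulated rates therefore need not hold for the data. P-values set the difference between groups against the spread between these cultures. Whether that spread covers differences between transformed lines is not known, since their number is not given.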

Additional observations from a re-analysis of the deposited data

How the results depend on the processing

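The log2 fold change of COCSUDRAFT_67338 stayed between -1.61 and -1.36 over 14 other settings, moving by less than the spread between replicates, and its mean level moved by less than 1 SD in either group. Its median rank per kilobase was 113 in OX-labelled and 12 in WT libraries. With library size only as scaling, 1140 genes were higher and 995 lower, a share of 53.4% higher in place of 63.5%, and the median of all genes was -0.07. Leaving out 1 library gave 737 to 1627 higher and 313 to 1232 lower genes, against 1337 and 770 with all libraries. Without WT replicates 1, 2 and 3 these were 737, 875 and 865 higher and 313, 414 and 385 lower, without OX-labelled replicate 1 there were 414 lower, and without OX-labelled replicate 3 there were 1232 lower. For genes of the same name it gave 0 to 3 lower and 0 to 1 higher, and for the wider list 3 to 7 higher. Of the same name, 2 in place of 1 were lower with library size only, upper quartile scaling, no filter on low counts, DESeq2's Wald test, limma-voom and the replicate block. The cause was not tested.

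Deviations of same-numbered libraries from the group means correlated at -0.16, 0.15 and 0.06. Replicates 1 and 3 correlated better with another number, and replicate 2 did not (0.15 against -0.02). With 3 libraries a group the deviations sum to 0 in each group, so these correlations depend on each other and cannot decide whether cultures were paired. With the replicate number as a block, 1297 genes were higher and 801 lower, and COCSUDRAFT_67338 had a log2 fold change of -1.52. The block also gave a lower call for COCSUDRAFT_57535 (-0.69, edgeR adjusted p = 0.0361) and COCSUDRAFT_49353 (-0.69).

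The MADS-box gene passed in edgeR with DESeq2 size factors (log2 fold change -0.52, adjusted p = 0.0499), library size only (-0.58, adjusted p = 0.0295), upper quartile scaling (-0.54, adjusted p = 0.0405) and no filter (-0.55, adjusted p = 0.0448), and in DESeq2's Wald test (-0.52, adjusted p = 0.0437). Over all settings its adjusted p ran from 0.0295 to 0.168.

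Signs near 0 were not stable. COCSUDRAFT_42977 changed sign with library size only (-0.035), no filter (-0.0062) and limma-voom (-0.0040), and ran from -0.20 to 0.14 over the fits that leave out 1 library. In those fits COCSUDRAFT_34937 ran from -0.49 to 0.32, COCSUDRAFT_55188 from -0.37 to 0.23, COCSUDRAFT_59422 from -0.49 to 0.045 and COCSUDRAFT_35199 from -0.41 to 0.14. A count of 3 stood for 0.588 to 0.758 CPM across libraries.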
